A study of Mus musculus with 12 samples.

Results

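Parathyroid hormone-related protein (Pthlh) and 8 other genes of mammary calcium signalling were followed across sorted luminal and basal mammary epithelial cells of MMTVRANK and wild-type (WT) mice. The 9 genes were Pthlh, Calca, Stc1, Pth1r, Casr, Calcr, Vdr, Cyp24a1 and Atp2b2, found by symbol among 53735 symbols in the table. The set was chosen by the measured MMTVRANK against WT difference of Pthlh in luminal cells, with results of these data known. The MMTVRANK minus WT values in luminal cells are therefore a description of the 9 genes, with no test. Of the 9 genes, 7 passed the filter on low counts, among 18236 genes tested. Casr and Calcr did not pass.

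Pthlh encodes a secreted peptide that binds the receptor encoded by Pth1r, which raises cyclic AMP. In the embryonic mouse mammary bud the epithelium makes this peptide and the surrounding mesenchyme carries the receptor. In lactation, the calcium-sensing receptor (Casr) of mammary epithelium restrains the release of the peptide and raises calcium transport into milk, for which the plasma membrane pump encoded by Atp2b2 is the main exporter. The vitamin D receptor (Vdr) turns on Cyp24a1, whose enzyme breaks down active vitamin D, and calcitonin, one of the products of Calca, acts on the receptor encoded by Calcr.

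The series measured total RNA of live cells sorted on CD24 and CD49f from dissociated mammary glands by RNA-seq. The 4 groups, with 3 libraries each, were MMTVRANK luminal, WT luminal, MMTVRANK basal and WT basal cells. MMTVRANK mice carry Rank, the receptor encoded by Tnfrsf11a, under the mouse mammary tumour virus promoter, which is active in mammary epithelium and also in some other tissues, and WT mice lack the transgene. The labels used here give no age, no treatment and no statement that libraries came from separate animals, so p-values measure the spread between these libraries.

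Total counts lay between 12459547 and 15069578 per library, and levels are given in CPM, the counts of a gene scaled to a common library size by TMM factors. Summed levels of 6 pan-luminal markers were 6850 to 17310 CPM in luminal libraries against 273 to 586 CPM in basal libraries. Summed levels of 9 basal markers were 35.5 to 385 CPM in luminal libraries against 22430 to 29450 CPM in basal libraries, so the populations in the titles bore their markers. For both WT replicate 2 libraries the title and the cell subtype label name opposite populations, and the titles, which match the markers, were used. Tnfrsf11a had 319, 155 and 238 CPM in MMTVRANK luminal libraries, against 6.36, 90.7 and 9.89 CPM in WT luminal libraries. It had 414, 129 and 218 CPM in MMTVRANK basal libraries, against 73.6, 158 and 65.1 CPM in WT basal libraries. The libraries labelled WT replicate 2 thus stood above the other WT libraries of their population, and the basal one stood above an MMTVRANK library, so fold changes of the 9 genes that include these libraries are also given without them, and the pathway lists are summarised without them. Summed levels of 12 leukocyte markers were 282 CPM in MMTVRANK luminal replicate 3 and 163 CPM in MMTVRANK basal replicate 3, against 4.66 to 34.0 CPM in the other 10 libraries. In bulk samples, fewer cells of a type and less RNA per cell cannot be told apart.

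The annotated promoters of Pthlh and Calca, the peptide genes whose luminal levels varied most between libraries, are shown to place these genes on the genome. Each runs 5′ to 3′ on the minus strand over 300 bases, 250 before and 50 after the annotated start, from RefSeq on GRCm38.p6. The Pthlh gene model used for counting reaches to base 147264183, so part of the 250 bases before the RefSeq start lies within that model. Capitals mark GC boxes (GGGCGG, or CCGCCC on the other strand) in the Pthlh promoter and a CRE half-site (TGACG, or CGTCA on the other strand) in the Calca promoter.
Pthlh, chr6:147263964-147264263: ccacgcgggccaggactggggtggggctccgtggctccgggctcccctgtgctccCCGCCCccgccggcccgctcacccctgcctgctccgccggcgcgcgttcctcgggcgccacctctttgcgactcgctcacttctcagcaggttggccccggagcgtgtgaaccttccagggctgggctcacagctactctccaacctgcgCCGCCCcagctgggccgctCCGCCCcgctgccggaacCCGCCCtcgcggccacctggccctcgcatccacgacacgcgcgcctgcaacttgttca
Calca, chr7:114636308-114636607: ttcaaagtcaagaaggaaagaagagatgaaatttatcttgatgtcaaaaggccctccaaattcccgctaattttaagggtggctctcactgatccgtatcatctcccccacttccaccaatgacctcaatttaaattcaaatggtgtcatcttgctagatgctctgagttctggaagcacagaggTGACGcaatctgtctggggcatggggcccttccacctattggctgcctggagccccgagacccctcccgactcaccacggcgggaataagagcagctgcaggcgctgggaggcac
The Pthlh promoter held 74.0% G and C and 4 GC boxes, and no CRE half-site. The Calca promoter held 51.3% G and C and 1 CRE half-site, and no GC box. Across 32851 promoters of the same length, 35.7% held GGGCGG, 20.8% held TGACG, and the median G and C share was 52.7%. Neither printed promoter held TATAAA, which 13.6% of all promoters held. Among the 9 genes 7 had a promoter in the table. A match is a description of these letters and not of a bound factor.

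Averaged over the 4 group means and divided by exon length, levels ran from 19.3 CPM per kb for Vdr and 16.8 CPM per kb for Calca down to 0.038 CPM per kb for Casr and 0.0315 CPM per kb for Calcr. Between these lay Pthlh at 3.34, Cyp24a1 at 1.71, Stc1 at 1.19, Pth1r at 0.594 and Atp2b2 at 0.0523 CPM per kb. The receptor for vitamin D was thus far more abundant than the receptors for the peptides and for calcium.

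**Figure D1:**
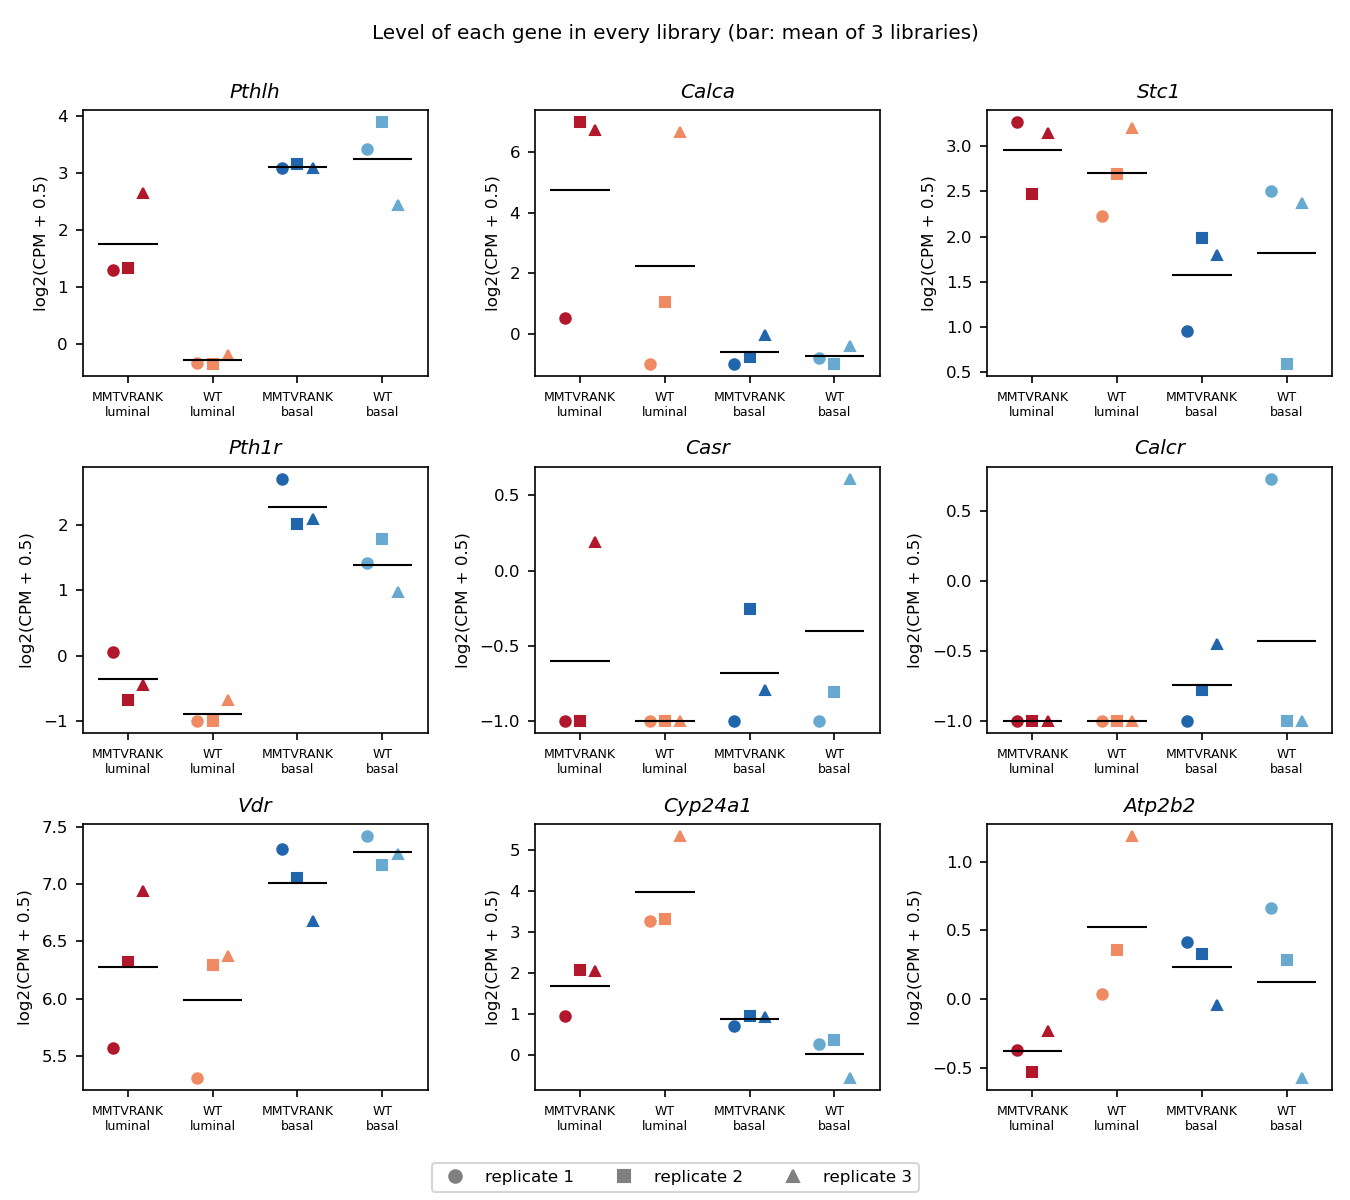
Levels of the 9 genes as log2(CPM + 0.5) (vertical axes, scaled per gene) in each of the 12 libraries, grouped as MMTVRANK luminal, WT luminal, MMTVRANK basal and WT basal; each point is a library, its shape the replicate number, and each bar the mean of the 3 log2 values. In CPM, Pthlh lay between 1.97 and 5.78 CPM in MMTVRANK luminal libraries and between 0.283 and 0.380 CPM in WT luminal libraries.

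Among the ligands, Pthlh (chr6:147252101-147264183, minus strand) was mostly a basal transcript. It had 1.97, 2.04 and 5.78 CPM in MMTVRANK luminal libraries (29, 32 and 99 counts), against 0.299, 0.283 and 0.380 CPM in WT luminal libraries (4, 4 and 6 counts). Every MMTVRANK luminal library lay above every WT luminal library, and MMTVRANK replicate 3 was the highest. The log2 fold change was 3.31 ± 0.59 (SE), and 3.23 without both WT replicate 2 libraries and 2.57 without MMTVRANK luminal replicate 3. In basal cells it had 8.01, 8.50 and 8.05 CPM in MMTVRANK libraries, against 10.3, 14.4 and 4.95 CPM in WT libraries. The basal groups overlapped, with a log2 fold change of -0.27 ± 0.49 (adjusted p = 1, edgeR's quasi-likelihood test, Benjamini-Hochberg adjusted over 18236 genes, as for every adjusted p here). Without the library labelled WT basal replicate 2, or without both WT replicate 2 libraries, the sign of this small difference turned, to 0.11.

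The order of the 4 group means of Pthlh was WT basal, MMTVRANK basal, MMTVRANK luminal and WT luminal, and only the first pair overlapped. The group means were 3.27 ± 2.18 CPM in MMTVRANK luminal, 0.321 ± 0.0521 CPM in WT luminal, 8.19 ± 0.271 CPM in MMTVRANK basal and 9.88 ± 4.76 CPM in WT basal libraries (SD, n = 3 each). In WT mice Pthlh was lower in luminal cells by a log2 fold change of -4.90 ± 0.61 (adjusted p = 6.27e-05; -4.44 without both WT replicate 2 libraries, adjusted p = 0.00185), and all WT luminal libraries lay below all WT basal ones. In MMTVRANK mice the luminal minus basal log2 fold change was -1.32 ± 0.51 and did not pass the test (adjusted p = 0.0628), although all luminal libraries lay below all basal ones. Without MMTVRANK luminal replicate 3 it was -2.02 and passed (adjusted p = 0.0111), and it also passed without WT basal replicate 3 (adjusted p = 0.0437). The 2 luminal minus basal comparisons use the luminal libraries that chose the genes. That choice favours low WT and high MMTVRANK luminal Pthlh, so the p-values of Pthlh in both comparisons are not independent of it. The difference between the 2 comparisons, 3.58 ± 0.76 in log2 (3.12 without both WT replicate 2 libraries), is a description with no test.

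Pthlh in luminal libraries was set against the mean of the 6 basal libraries, 9.04 CPM. It reached 21.8%, 22.6% and 64.0% of that mean in MMTVRANK luminal libraries, against 3.31%, 3.14% and 4.21% in WT luminal libraries. The summed 9 basal markers reached 0.282%, 0.417% and 1.51% of their own basal mean in MMTVRANK luminal libraries, against 0.140%, 0.218% and 0.430% in WT luminal libraries. In each luminal library of either genotype the Pthlh share was thus above the share of the basal markers, and MMTVRANK replicate 3 was highest in both. None of the markers was at 0 in all libraries of a group. The part of basal cells in the luminal levels of Pthlh was not tested.

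**Figure D2:**
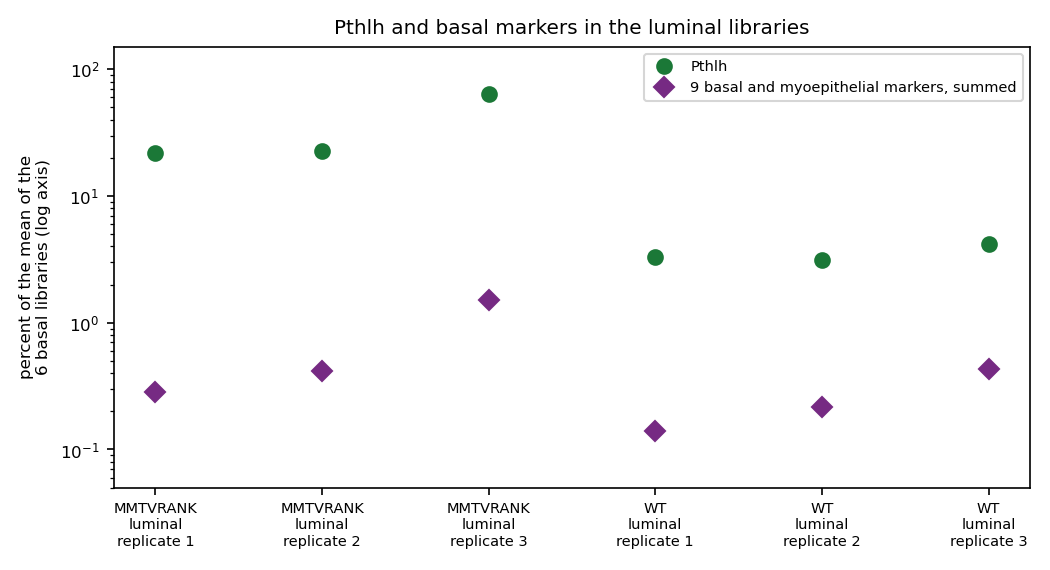
Pthlh (circles) and the sum of 9 basal and myoepithelial markers (diamonds) in the 3 MMTVRANK and 3 WT luminal libraries, as a percentage of the mean of the 6 basal libraries on a log axis. Pthlh lay between 21.8% and 64.0% in MMTVRANK libraries and between 3.14% and 4.21% in WT libraries, while the markers stayed at or below 1.51%.

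Calca (chr7:114631478-114636357, minus strand), which encodes calcitonin and the neuropeptide CGRP by alternative splicing, was either high or near the floor in luminal cells. It had 0.952, 128 and 107 CPM in MMTVRANK luminal libraries (14, 2003 and 1828 counts), against 0, 1.56 and 102 CPM in WT luminal libraries (0, 22 and 1605 counts). Both genotypes held high and low libraries, so the groups overlapped and the log2 fold change of 1.19 ± 1.67 was smaller than its error. Without WT luminal replicate 3 that value was 6.59, and without both WT replicate 2 libraries 0.63. Basal libraries held 0 to 6 counts each in MMTVRANK mice and 0 to 3 counts each in WT mice.

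Calca was higher in luminal than in basal cells in both genotypes. The log2 fold change was 8.67 ± 2.6 in MMTVRANK mice (adjusted p = 0.0248), where no luminal library overlapped a basal one, and 8.25 ± 2.72 in WT mice (adjusted p = 0.0342), where the groups overlapped. Both calls were lost in some fits with 1 library left out. The WT call was lost without WT luminal replicate 3 (2.81, adjusted p = 0.406), and also without MMTVRANK luminal replicate 2 or 3, MMTVRANK basal replicate 1, or any 1 of the WT basal libraries (7.66 to 9.55, adjusted p up to 0.0974). It was lost without both WT replicate 2 libraries as well (8.22, adjusted p = 0.0753). The MMTVRANK call was lost without MMTVRANK luminal replicate 2 or 3 or any 1 of the MMTVRANK basal libraries (8.08 to 10.65, adjusted p up to 0.095). There the fold change stayed large but not constant. The MMTVRANK call was kept without both WT replicate 2 libraries (adjusted p = 0.0263). The size of both fold changes is uncertain, since the basal libraries held 7 counts in all in MMTVRANK and 4 in WT mice. Calcb, the near copy of Calca, had at most 1.21 CPM in any library.

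Tnfsf11, which encodes the Rank ligand and is a known progesterone-responsive gene of luminal cells, was high in the same luminal libraries as Calca. It had 0.204, 33.4 and 25.5 CPM in MMTVRANK luminal libraries, against 0.823, 0.213 and 51.5 CPM in WT luminal libraries. MMTVRANK replicates 2 and 3 and WT replicate 3 were the high libraries for both genes. Basal libraries had at most 1.41 CPM of Tnfsf11.

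**Figure D3:**
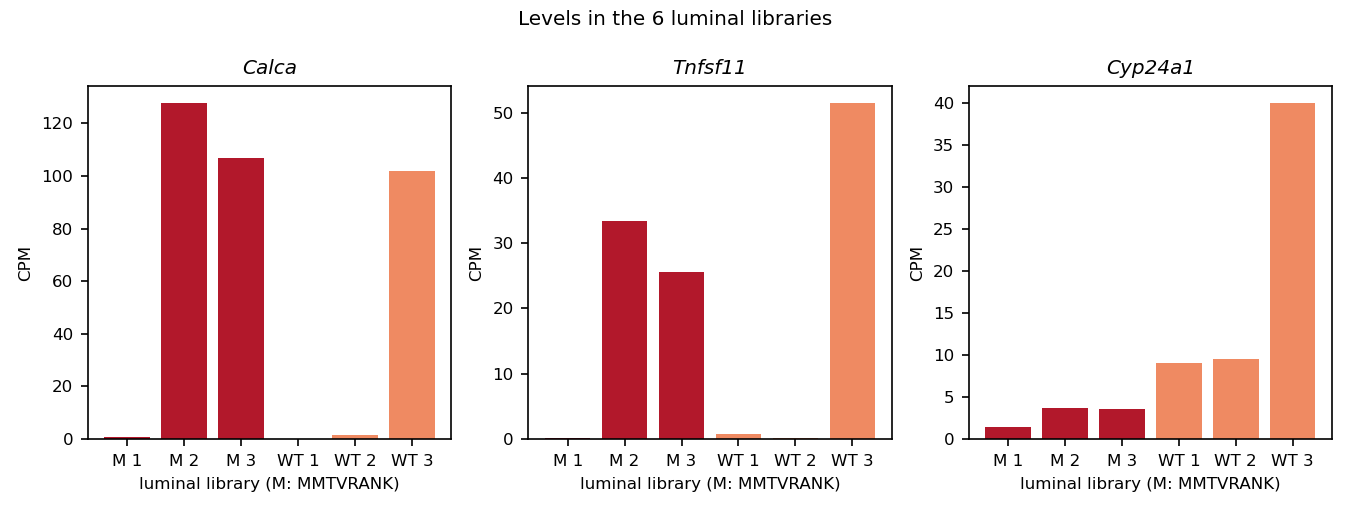
Levels in CPM (vertical axes, each from 0) of Calca, Tnfsf11 and Cyp24a1 in the 3 MMTVRANK (M) and 3 WT luminal libraries; each bar is a library. Calca and Tnfsf11 are high in MMTVRANK replicates 2 and 3 and WT replicate 3, while Cyp24a1 is lower in every MMTVRANK library than in every WT library.

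Stc1 (chr14:69029238-69041804, plus strand), which encodes stanniocalcin 1, a secreted glycoprotein first known as a calcium-lowering hormone of fish, was present in all 12 libraries. It had 9.11, 5.04 and 8.35 CPM in MMTVRANK luminal libraries, against 4.19, 5.95 and 8.69 CPM in WT luminal libraries. It had 1.43, 3.45 and 2.97 CPM in MMTVRANK basal libraries, against 5.17, 1.01 and 4.69 CPM in WT basal libraries. The genotypes overlapped in both populations, with log2 fold changes of 0.26 ± 0.57 in luminal cells (no test) and -0.47 ± 0.59 in basal cells (adjusted p = 1), and 0.22 and -0.91 without both WT replicate 2 libraries. The luminal minus basal log2 fold change was 1.52 ± 0.59 in MMTVRANK mice (adjusted p = 0.0681, no overlap) and 0.79 ± 0.58 in WT mice (adjusted p = 0.316, with overlap; 0.39 without both WT replicate 2 libraries, adjusted p = 0.656). The MMTVRANK difference passed the test without the library labelled WT basal replicate 2 (adjusted p = 0.0254) or without both WT replicate 2 libraries (adjusted p = 0.0359). Exons of Stc1 share 229 bases with RP23-470F15.2 on the other strand, which had at most 2 counts in any library.

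Among the receptors, Pth1r (chr9:110722085-110747145, minus strand) was found mainly in basal libraries. It had 8, 2 and 4 counts in MMTVRANK luminal libraries, against 0, 0 and 2 counts in WT luminal libraries. In CPM these were 0.544, 0.128 and 0.234 in MMTVRANK luminal libraries, against 0, 0 and 0.127 in WT luminal libraries. All MMTVRANK luminal libraries lay above all WT luminal ones, but replicate 2 by less than 0.01 CPM. The ratio of summed counts scaled to library size was 6.38, MMTVRANK over WT, with a 95% counting interval of 1.46 to 57.8, on 14 and 2 counts, none of them from the library labelled WT luminal replicate 2. The fitted fold of such low counts depends on the prior and is not used.

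In basal cells Pth1r had 5.97, 3.53 and 3.75 CPM in MMTVRANK libraries, against 2.16, 2.95 and 1.45 CPM in WT libraries. All MMTVRANK basal libraries were above all WT ones, yet the log2 fold change of 1.01 ± 0.75 did not pass the test (adjusted p = 0.99; 1.29 without both WT replicate 2 libraries, adjusted p = 0.818). In MMTVRANK mice Pth1r was lower in luminal cells, against basal cells, by a log2 fold change of -3.84 ± 0.86 (adjusted p = 0.00414). In WT mice the luminal over basal ratio was 0.0208 (95% counting interval 0.00247 to 0.0773, 2 against 86 counts, adjusted p = 0.0013). Neither call was lost without any 1 library, and the WT call was kept without both WT replicate 2 libraries (adjusted p = 0.0152). The summed 8 fibroblast markers were 38.1 to 235 CPM in luminal libraries, against 283 to 2876 CPM in basal libraries. The part of fibroblasts in the levels of Pth1r was not tested. Exons of Pth1r share 95 bases with Myl3 on the other strand, which had at most 4 counts in any library.

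Casr (chr16:36493696-36562141, minus strand) and Calcr (chr6:3685680-3764714, minus strand) were close to the detection limit. Casr had 0, 0 and 11 counts in MMTVRANK luminal libraries, against 0 counts in each WT luminal library, and 0, 4 and 1 counts in MMTVRANK basal libraries, against 0, 1 and 12 counts in WT basal libraries. Calcr had 0 counts in all 6 luminal libraries, 0, 1 and 3 counts in MMTVRANK basal libraries and 15, 0 and 0 counts in WT basal libraries. Most of the counts of each gene thus came from 1 library per group. A count of 0 allows up to 3 counts per library, which is 0.175 to 0.256 CPM. Such floors and the counting intervals given here describe counting error alone. The 11 counts of Casr stood in MMTVRANK luminal replicate 3, the library with the highest leukocyte markers, but the 12 counts stood in WT basal replicate 3, with 34.0 CPM of these markers, and MMTVRANK basal replicate 3, with 163 CPM, had 1 count. The 15 counts of Calcr stood in WT basal replicate 1, the library with the highest fibroblast (2876 CPM) and nerve and Schwann cell markers (882 CPM). The part of these cells in the counts was not tested.

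Vdr (chr15:97854425-97910630, minus strand) was the most abundant of the 9 genes per length. It had 47.0, 79.5 and 122 CPM in MMTVRANK luminal libraries, against 39.0, 78.1 and 82.4 CPM in WT luminal libraries. It had 159, 132 and 102 CPM in MMTVRANK basal libraries, against 171, 143 and 154 CPM in WT basal libraries. The genotypes overlapped in both populations, with log2 fold changes of 0.32 ± 0.34 in luminal cells (no test) and -0.25 ± 0.34 in basal cells (adjusted p = 1), and 0.45 and -0.30 without both WT replicate 2 libraries. The luminal value was -0.11 without MMTVRANK luminal replicate 3.

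In WT mice Vdr was lower in luminal cells, against basal cells, by a log2 fold change of -1.23 ± 0.34 (adjusted p = 0.0141), with no overlap of libraries. The call was kept without any 1 library (adjusted p up to 0.0468) and without both WT replicate 2 libraries (adjusted p = 0.0421). In MMTVRANK mice the groups overlapped and the log2 fold change was -0.66 ± 0.34 (adjusted p = 0.163). Without MMTVRANK luminal replicate 3, the luminal library with the highest Vdr, it was -1.05 and passed the test (adjusted p = 0.0262).

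Cyp24a1 (chr2:170482708-170497145, minus strand), the enzyme gene, was the member with the largest luminal excess over basal cells in WT mice after Calca. It had 1.43, 3.70 and 3.62 CPM in MMTVRANK luminal libraries (21, 58 and 62 counts), against 9.05, 9.49 and 40.1 CPM in WT luminal libraries (121, 134 and 632 counts). Every MMTVRANK luminal library lay below every WT luminal one, and WT replicate 3 was far above the rest. The log2 fold change was -2.74 ± 0.67, with -1.71 without WT luminal replicate 3 and -3.07 without both WT replicate 2 libraries. Vdr, the receptor that turns this gene on, had overlapping transcript levels in the same libraries. The part of this receptor in the Cyp24a1 difference was not tested.

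In basal cells Cyp24a1 had 1.13, 1.43 and 1.41 CPM in MMTVRANK libraries, against 0.695, 0.790 and 0.171 CPM in WT libraries. All MMTVRANK basal libraries lay above all WT ones, the opposite order to that in luminal cells, but the log2 fold change of 1.23 ± 0.72 did not pass the test (adjusted p = 0.977; 1.58 without both WT replicate 2 libraries, adjusted p = 0.742). Cyp24a1 was higher in luminal than in basal WT cells by a log2 fold change of 5.11 ± 0.77 (adjusted p = 0.000245), by 4.05 without WT luminal replicate 3 (adjusted p = 0.00094), and by 5.79 without both WT replicate 2 libraries (adjusted p = 0.00149). In MMTVRANK mice that difference was 1.14 ± 0.66, with overlapping libraries, and did not pass the test (adjusted p = 0.217). Exons of Cyp24a1 share 83 bases with Pfdn4 on the other strand, which had 9.87 to 23.6 CPM, and counting without strand cannot tell their reads in those bases apart.

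Atp2b2 (chr6:113743831-114042613, minus strand), the pump gene, was low in these cells. It had 0.272, 0.191 and 0.351 CPM in MMTVRANK luminal libraries (4, 3 and 6 counts), against 0.524, 0.779 and 1.78 CPM in WT luminal libraries (7, 11 and 28 counts). It had 0.831, 0.757 and 0.469 CPM in MMTVRANK basal libraries, against 1.08, 0.718 and 0.171 CPM in WT basal libraries. Every MMTVRANK luminal library lay below every WT luminal one, with a log2 fold change of -1.89 ± 0.88, with -1.28 without WT luminal replicate 3 and -2.05 without both WT replicate 2 libraries. The basal groups overlapped (0.06 ± 0.86, adjusted p = 1; 0.13 without both WT replicate 2 libraries). The luminal minus basal log2 fold change was -1.31 ± 0.88 in MMTVRANK mice (adjusted p = 0.29) and 0.64 ± 0.85 in WT mice (adjusted p = 0.596; 0.87 without both WT replicate 2 libraries, adjusted p = 0.612), and neither passed the test.

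Across the 7 genes tested, the comparisons of populations gave calls and the basal comparison of genotypes gave none. In luminal against basal cells of MMTVRANK mice, 2 of the 7 passed (Calca higher, Pth1r lower), where 33.2% of all genes tested did. In WT mice 5 of the 7 passed (Cyp24a1 and Calca higher, Pthlh, Pth1r and Vdr lower), where 38.1% of all genes tested did. The Pthlh call uses the WT luminal libraries that helped choose the set. In MMTVRANK against WT basal cells 0 of the 7 passed in edgeR, DESeq2 or limma-voom and 0 had an unadjusted p under 0.05, where 0.00548% of all genes tested passed in edgeR.

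Whether libraries overlapped was read against the same background. In luminal cells 4 of the 7 genes had no overlap between MMTVRANK and WT libraries (Pthlh and Pth1r higher, Cyp24a1 and Atp2b2 lower), as did 16.9% of all genes tested, and that comparison chose the genes. In basal cells 2 of the 7 had none (Pth1r and Cyp24a1 higher), as did 11.1% of all genes. Between luminal and basal libraries the background was 54.6% in MMTVRANK and 46.1% in WT mice. In luminal cells the edgeR test called 0.252% of all genes between the genotypes (46, with 17 higher and 29 lower in MMTVRANK), and 103 genes with a replicate block (37 higher, 66 lower).

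**Figure D4:**
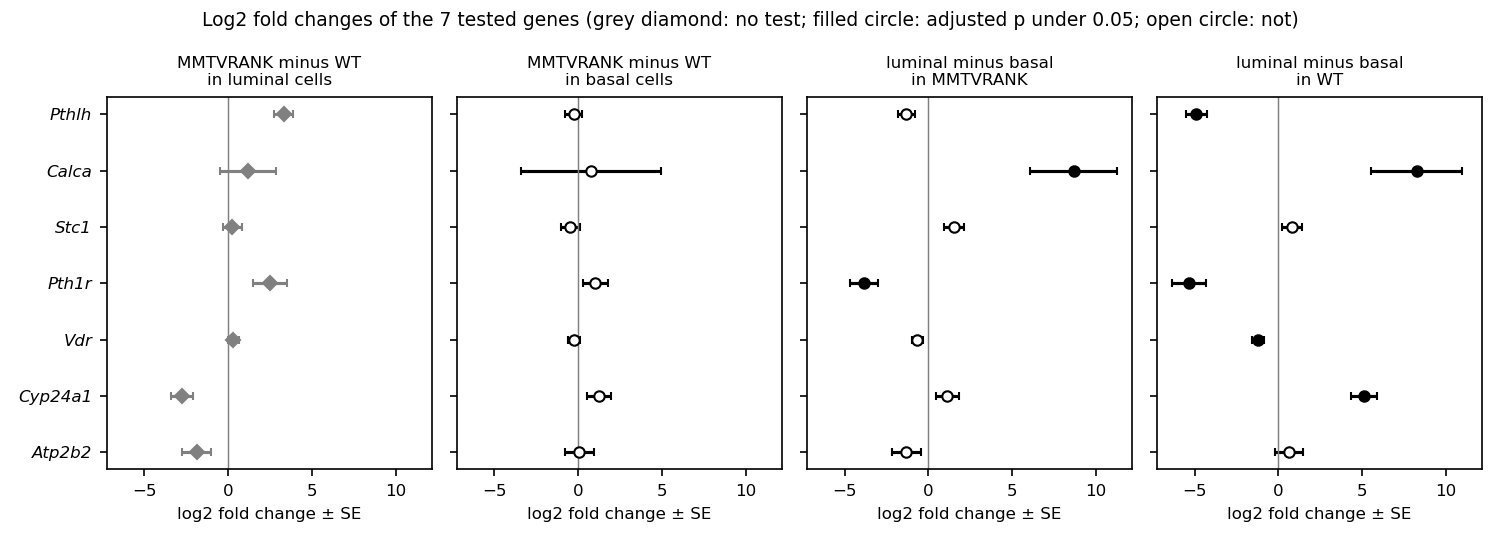
Log2 fold changes (points) with their standard errors (bars) of the 7 tested genes, in panels for MMTVRANK minus WT in luminal cells, MMTVRANK minus WT in basal cells, luminal minus basal in MMTVRANK and luminal minus basal in WT. Grey diamonds mark the comparison with no test, filled circles an adjusted p under 0.05 and open circles a larger one; no gene is filled in the basal comparison of genotypes, and Pth1r values that involve its 2 WT luminal counts depend on the prior.

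MMTVRANK luminal libraries also differed from WT luminal libraries in several summed markers. The summed 8 proliferation markers were 1589, 642 and 1403 CPM in MMTVRANK luminal libraries, against 145, 280 and 54.5 CPM in WT luminal libraries. The summed 8 markers of hormone-sensing luminal cells were 1815 to 5448 CPM in MMTVRANK luminal libraries, against 5434 to 10310 CPM in WT luminal libraries. The proliferation markers were thus higher in every MMTVRANK luminal library than in every WT one. The summed 6 pan-luminal markers were 6850 to 10990 CPM in MMTVRANK luminal libraries, against 11830 to 17310 CPM in WT luminal libraries, and so were lower in every MMTVRANK library. The summed 8 progenitor and alveolar markers were 442 to 721 CPM in MMTVRANK luminal libraries, against 816 to 1590 CPM in WT luminal libraries. Most of that difference was in the milk protein gene Csn3, with means of 20.4 CPM in MMTVRANK and 525 CPM in WT luminal libraries. The progenitor markers Kit (147 CPM in MMTVRANK, 140 CPM in WT) and Cd14 (238 CPM in MMTVRANK, 207 CPM in WT) differed by less than their spread, but do not stand for the list. Of its 7 tested genes, 2 had a positive MMTVRANK minus WT log2 fold change in luminal cells, and the median was -0.396. Csn3 and Lalba passed the edgeR test as lower in MMTVRANK, where 0.159% of all genes tested did. The part of these markers in the luminal differences of Pthlh, Cyp24a1 and Atp2b2 was not tested.

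The genes whose levels were most like those of Pthlh over the 12 libraries were Apcdd1, Tcf7l1, Vangl1, Efnb2 and Lmo4, out of 12242 candidates. Likeness was Pearson's r of log2(CPM + 0.5), a description across libraries that fall into a luminal and a basal cluster. For Apcdd1, an inhibitor of Wnt signalling at the cell membrane, r was 0.973 over 12 libraries, 0.956 over the 6 luminal ones and 0.847 over the 6 basal ones. Apcdd1 had 5.38 ± 1.92 CPM in MMTVRANK luminal, 0.872 ± 0.314 CPM in WT luminal, 8.50 ± 0.584 CPM in MMTVRANK basal and 13.4 ± 5.27 CPM in WT basal libraries (SD, n = 3 each).

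For Tcf7l1, a transcription factor of the Wnt pathway, r was 0.970 over 12 libraries, with 0.964 over the luminal and 0.520 over the basal ones. For Vangl1, a planar polarity protein, r was 0.964 over 12 libraries, with 0.967 over the luminal and 0.622 over the basal ones. For Efnb2, an ephrin ligand, r was 0.962 over 12 libraries, with 0.959 over the luminal and 0.621 over the basal ones. For Lmo4, a LIM-domain cofactor, r was 0.961 over 12 libraries, with 0.964 over the luminal but 0.206 over the basal ones. Like Pthlh, all 5 had their lowest group mean in WT luminal libraries. The choice by likeness to Pthlh favours that order, so neither it nor the luminal levels of Tcf7l1 below are a separate result. Tcf7l1 averaged 33.7 ± 22.1 CPM in MMTVRANK luminal libraries, against 9.92 ± 2.32 CPM in WT luminal libraries (SD, n = 3 each).

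Other genes of these pathways were read from 8 lists of 117 genes, of which 94 were tested. Between the genotypes none of the 94 passed in edgeR, in luminal or in basal cells, where 0.252% and 0.00548% of all genes did. At an unadjusted p under 0.05 there were 12 in luminal and 7 in basal cells, beside 2183 and 986 of all 18236 genes, and limma-voom called 0 in both. DESeq2 called 6 in luminal cells (Lrp2, Prkar1b, Trpv6, Fgfr1, Tnfrsf11b and Slc8a1) and 0 in basal cells. DESeq2 also called many more of all genes than edgeR, as given under processing below, so the edgeR shares are not the background of its calls. Between luminal and basal cells 50 of the 94 passed in MMTVRANK mice (15 higher, 35 lower) and 53 in WT mice (15 higher, 38 lower). Over all genes tested, 33.2% passed in MMTVRANK mice (16.1% higher, 17% lower) and 38.1% in WT mice (18% higher, 20% lower), which is the background for the counts of each list. Without both WT replicate 2 libraries 45 of 95 tested passed in MMTVRANK and 42 in WT mice. The share of all genes that passed in that fit is not given, so these lower counts cannot be told from a general loss of calls. Of the pathway calls named here, Adm in WT mice and Tnfrsf11b in MMTVRANK mice were lost. The median luminal minus basal log2 fold change over the 94 was -0.545 in MMTVRANK and -0.581 in WT mice, beside 0.05 and -0.07 over all genes tested. Summed fibroblast, endothelial, adipocyte, and nerve and Schwann cell markers were higher in every basal than in every luminal library, and summed pericyte markers were lower. The part of such cells in the luminal minus basal differences of these lists was not tested.

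In the list of receptor signalling downstream of Pth1r (G proteins, adenylyl cyclases, protein kinase A and partners), luminal cells of MMTVRANK mice were above basal cells in 6 of 24 tested genes and below them in 9, and those of WT mice above in 5 and below in 8. Slc9a3r1, a scaffold that binds the receptor, averaged 197 CPM in luminal and 43.6 CPM in basal cells of WT mice (log2 fold change 2.17 ± 0.23, adjusted p = 1.68e-05). Prkacb, a catalytic subunit of protein kinase A, averaged 41.4 CPM in luminal and 101 CPM in basal cells of WT mice (-1.29 ± 0.14, adjusted p = 2.93e-05). Adcy9, an adenylyl cyclase, averaged 27.9 CPM in luminal and 67.4 CPM in basal cells of WT mice (-1.27 ± 0.16, adjusted p = 7.65e-05). All 3 also passed in the same direction in MMTVRANK mice.

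Of the 24 tested pumps, exchangers and channels, 4 were higher and 7 lower in luminal cells of MMTVRANK mice, and 5 were higher and 9 lower in those of WT mice. Atp2b4, another plasma membrane calcium pump, averaged 2.58 CPM in luminal and 66.2 CPM in basal cells of WT mice (-4.68 ± 0.47, adjusted p = 1.35e-05). Itpr3, an endoplasmic reticulum calcium release channel, averaged 363 CPM in luminal and 155 CPM in basal cells of WT mice (1.23 ± 0.19, adjusted p = 0.000317). Slc8a1, a sodium-calcium exchanger, had 2 counts over the WT luminal libraries against 1386 over the WT basal ones, a ratio of 0.00129 (95% counting interval 0.000156 to 0.00466). Basal libraries thus held more transcript of the exporters Atp2b4 and Slc8a1. Itpr1, another release channel and named after its values were seen, went the other way from Itpr3, with 163 CPM in luminal and 279 CPM in basal cells of WT mice (adjusted p = 0.00266).

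Of the 10 tested calcium-binding proteins, 1 was higher and 4 lower in luminal cells of MMTVRANK mice, and 1 was higher and 3 lower in those of WT mice. In WT mice Nucb2, a calcium-binding nucleobindin, was higher in luminal cells (2.09 ± 0.27, adjusted p = 7.56e-05), and Casq2, a calsequestrin, was lower (-4.73 ± 1.02, adjusted p = 0.00329). Of the 6 tested genes of the calcitonin and CGRP family, 0 were higher and 3 lower in luminal cells of MMTVRANK mice, and 1 was higher and 4 lower in those of WT mice. Calcrl, the receptor subunit for CGRP and adrenomedullin, averaged 2.19 CPM in luminal and 12.8 CPM in basal cells of WT mice (-2.55 ± 0.48, adjusted p = 0.00134). Its partner Ramp2 averaged 0.368 CPM in luminal and 12.6 CPM in basal cells of WT mice (-5.06 ± 0.53, adjusted p = 1.77e-05), and the ligand Adm was also lower in luminal cells (-2.44 ± 0.58, adjusted p = 0.00547). Ramp1, which pairs with Calcrl to form the CGRP receptor and was named after its values were seen, averaged 15.0 CPM in luminal and 17.4 CPM in basal cells of WT mice and did not pass the test (adjusted p = 0.691). Endothelial cells also express Calcrl and Ramp2, and 8 summed endothelial markers were 7.22 to 24.2 CPM in the luminal libraries, against 73.3 to 269 CPM in the basal ones. Their part in these differences was not tested.

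Of the 11 tested genes of vitamin D metabolism and its partners, 1 was higher and 3 lower in luminal cells of MMTVRANK mice, and 1 was higher and 5 lower in those of WT mice. Ncoa1, a nuclear receptor coactivator, averaged 66.9 CPM in luminal and 223 CPM in basal cells of WT mice (-1.74 ± 0.17, adjusted p = 1.13e-05), and Dab2, an endocytic adaptor, was lower too (-2.06 ± 0.48, adjusted p = 0.00503). Lrp2, the endocytic receptor that takes up vitamin D carrier protein in kidney, averaged 0.127 CPM in luminal and 5.08 CPM in basal cells of WT mice (-5.16 ± 1.21, adjusted p = 0.00509). In MMTVRANK mice Lrp2 averaged 6.48 CPM in luminal and 3.64 CPM in basal cells, with overlapping libraries (adjusted p = 0.54). Between the genotypes in luminal cells every MMTVRANK library had more Lrp2 than every WT library, but the difference did not pass in edgeR (adjusted p = 0.085).

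Of the 5 tested genes of the stanniocalcin list, 1 was higher and 3 lower in luminal cells of either genotype. Stc2, the paralog of Stc1, averaged 411 CPM in luminal and 5.18 CPM in basal cells of MMTVRANK mice (6.30 ± 0.74, adjusted p = 7.76e-05), and 1093 CPM in luminal and 6.28 CPM in basal cells of WT mice (7.44 ± 0.77, adjusted p = 3.33e-05). Pappa, a protease that stanniocalcins inhibit, averaged 3.05 CPM in luminal and 446 CPM in basal cells of MMTVRANK mice (-7.18 ± 0.37, adjusted p = 1.54e-07), and 3.78 CPM in luminal and 334 CPM in basal cells of WT mice (-6.46 ± 0.36, adjusted p = 2.95e-07). The stanniocalcin and the protease thus lay in opposite populations in both genotypes. Flna, a scaffold that binds the calcium-sensing receptor, was lower in luminal cells of WT mice (-4.20 ± 0.39, adjusted p = 7.45e-06).

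Of the 11 tested regulators and mesenchymal targets of PTHrP, 2 were higher and 5 lower in luminal cells of MMTVRANK mice, and 1 was higher and 5 lower in those of WT mice. Msx2, a homeobox gene that PTHrP signalling induces in mouse mammary mesenchyme, averaged 26.0 CPM in luminal and 0.637 CPM in basal cells of MMTVRANK mice (5.33 ± 0.93, adjusted p = 0.00124), and 51.5 CPM in luminal and 0.649 CPM in basal cells of WT mice (6.35 ± 0.97, adjusted p = 0.00044). Gli3, a Hedgehog pathway factor, was lower in luminal cells of WT mice (-1.31 ± 0.18, adjusted p = 0.000117), as was Gli1 (-4.52 ± 1.06, adjusted p = 0.00497). In the list of 3 Rank axis genes, Tnfrsf11b, the decoy receptor for Rank ligand, had 1 count over the WT luminal libraries against 1532 over the WT basal ones, a ratio of 0.000582 (95% counting interval 1.47e-05 to 0.00325, adjusted p = 0.00154). In MMTVRANK mice Tnfrsf11b had 0, 1.21 and 15.9 CPM in luminal libraries, against 37.2, 52.3 and 64.4 CPM in basal libraries (adjusted p = 0.0474). Tnfrsf11a itself was not called between the genotypes (2.74 ± 0.89, adjusted p = 0.224, in luminal cells), but passed there without both WT replicate 2 libraries (4.87, adjusted p = 0.0154).

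**Figure D5:**
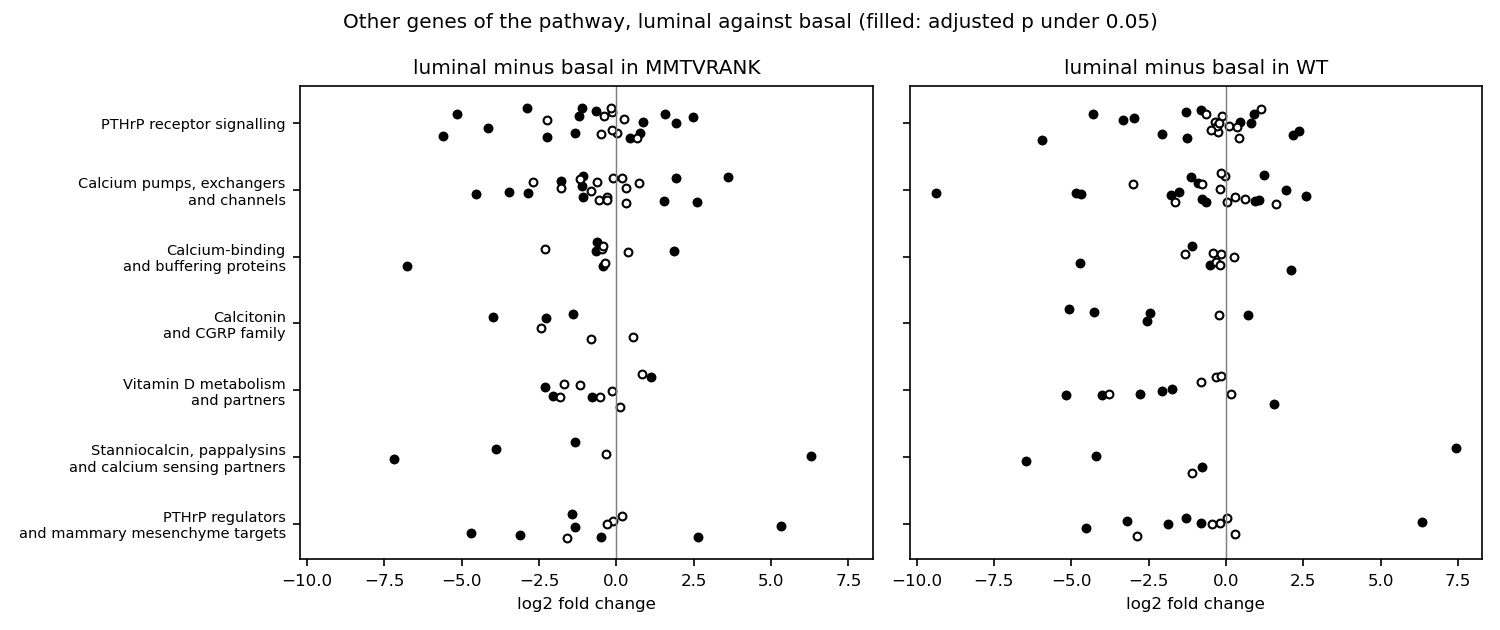
Log2 fold changes of luminal minus basal cells for each tested gene of 7 of the pathway lists, all but the Rank axis (points, spread vertically for sight), in a panel for MMTVRANK and a panel for WT mice; filled points had an adjusted p under 0.05. Stc2 is the point farthest to the right, at 6.30 in MMTVRANK and 7.44 in WT mice, and Slc8a1, with 2 WT luminal counts, has a WT value that depends on the prior.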

How the data were processed

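The deposited values are raw counts of reads, one row per symbol. Per the file headers, the authors ran featureCounts 1.5.2 on GENCODE M17 exons, kept the largest overlap and set no strand option. STAR 2.6.1b, Subread 1.5 and GRCm38.p6 are named in the submitters' processing notes. RNA came from an RNeasy Micro kit and libraries from a SMARTer stranded total RNA Pico kit, per the labels' protocols. Coordinates and exon lengths are those of the table.

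Counts were filtered (filterByExpr, minimum count 10), scaled by TMM (CPM are per effective library size) and fitted over all 12 libraries and 4 groups with edgeR 4.0.16 (quasi-likelihood, R 4.3.3), and p-values were adjusted over 18236 genes with a threshold of 0.05. The common biological coefficient of variation was 0.45. Of the symbols, 15946 had no count. DESeq2 1.42.0, limma-voom (limma 3.58.1), no filter, a replicate block, only the groups compared, no WT replicate 2 libraries and each library left out were alternatives. Deviations from the group means of same-numbered libraries were correlated over 10082 genes. Values of at least 0.1 throughout a comparison were read as pairing. These were 0.125 to 0.525 between luminal genotypes, 0.144 to 0.278 between MMTVRANK populations and 0.168 to 0.343 between WT populations. Between basal genotypes they were -0.0706 to 0.404, which was not read as pairing. The reading thus differs between comparisons that share libraries, and it comes from the data, not from the labels. The main fit took no account of pairing, and the replicate block did. The scripts were tested on simulated data. No pair of libraries was a duplicate (lowest chi-square per degree of freedom 28.6).

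The 9 genes and all lists were chosen with earlier results of these data known. Named pathway genes are the 3 with the smallest p in luminal minus basal WT cells of each list, of which 1 is not reported here; genes named for DESeq2 calls, Csn3, Kit, Cd14, Calcb and the other companions were chosen after their values were seen. The named likeness genes are the 5 with the highest r and an average log2 CPM of at least 1.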

Additional observations from a re-analysis of the deposited data

Results flagged for a closer look

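The genotype difference of Cyp24a1 pointed in opposite directions in the 2 populations. Every MMTVRANK library lay below every WT library in luminal cells (2.92 ± 1.29 CPM in MMTVRANK and 19.5 ± 17.8 CPM in WT, SD, n = 3 each), and every MMTVRANK library lay above every WT library in basal cells (1.32 ± 0.166 CPM in MMTVRANK and 0.552 ± 0.334 CPM in WT, SD, n = 3 each). The luminal log2 fold change minus the basal one was -3.97. The basal difference alone did not pass its test (1.23 ± 0.72, adjusted p = 0.977, edgeR) and rests on 15, 17 and 18 counts in MMTVRANK and 9, 11 and 2 counts in WT libraries. The difference between the populations was not tested, since the luminal comparison was used to choose the genes.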

How the results depend on the processing

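The number of genes called between genotypes depended on the setting. In luminal cells it was 46 (17 higher, 29 lower), against 800 with DESeq2 (485 higher, 315 lower), 29 with limma-voom, 1353 with no filter, 7 with only the groups compared, 81 without both WT replicate 2 libraries and 3 to 93 with 1 library left out. In basal cells it was 1, against 66 with DESeq2, 0 with limma-voom, 349 with no filter, 0 with only the groups compared, 4 without both WT replicate 2 libraries and 0 to 8 with 1 library left out (unadjusted p under 0.05 in 986 genes). For the difference between the genotype effects it was 1, against 140, 0, 776 and 3 with DESeq2, with limma-voom, with no filter and without both WT replicate 2 libraries, and 0 to 7 with 1 library left out. With the replicate block the luminal count was 103 and the count for the difference 0; the block changed no call among the 7 genes tested. The cause of these changes was not tested. The 800 luminal genes called by DESeq2, among 18236 tested, are the background for its 6 luminal calls among the 94 tested pathway genes.

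The calls of Pthlh, Pth1r, Vdr and Cyp24a1 between WT populations held in every alternative run, though that of Pthlh is not independent of how the set was chosen. Of the 7 genes, 4 passed between MMTVRANK populations with DESeq2 and 4 with only the groups compared, against 2, and 1 to 3 with 1 library left out. The shares of all genes that passed in these runs are not given, so these changes cannot be told from general ones. limma-voom called Calca in neither genotype (adjusted p = 0.384 in MMTVRANK and 0.668 in WT mice). Among tested values of the 7 genes, signs turned only for ones that did not pass: Pthlh between basal genotypes (0.11 without both WT replicate 2 libraries, -0.59 to 0.11 with 1 library left out), Calca there (-1.21 to 2.07), Atp2b2 there (-0.38 to 0.61) and Atp2b2 between WT populations (-0.0020 to 1.19). The untested luminal difference was positive for Pthlh in 19 of 19 alternatives and for Cyp24a1 in 0 of 19. Low counts limit Casr, Calcr, Pth1r and Atp2b2.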

Other observations

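Other genes were looked at after Calca and Tnfsf11 were seen. Pgr, the progesterone receptor, had 357, 287 and 62.9 CPM in MMTVRANK luminal libraries, against 833, 380 and 578 CPM in WT luminal libraries. Wnt4, a ligand downstream of that receptor, had 122, 226 and 113 CPM in MMTVRANK luminal libraries, against 382, 214 and 319 CPM in WT luminal libraries. Areg, one of the hormone-sensing markers, had 1129, 910 and 316 CPM in MMTVRANK luminal libraries, against 2181, 899 and 878 CPM in WT luminal libraries. None of these genes shared with Calca and Tnfsf11 the split into MMTVRANK replicates 2 and 3 and WT replicate 3 against the other luminal libraries. The part of progesterone in that split was not tested.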
